A study of Mus musculus with 6 samples.

Results

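A stretch of 8 neighbouring genes on mouse chromosome 11 was positive as a block in the comparison of sorted embryonic stem cells: Scpep1, Elobl, Coil, 2210409E12Rik, Gm11496, Trim25, Dgke and Dgkeos. These are 8 of the 17110 genes in the authors' deposited table. They were selected on the fold changes and calls of that same table, as neighbours that change together, so their fold changes below are a description, with no test. The cells were mouse embryonic stem cells of the line TG2A in serum medium with leukemia inhibitory factor. All 6 samples carried the same MERVL reporter. MERVL is an endogenous retrovirus active in the early mouse embryo and in rare cultured stem cells. Sorting by fluorescence gave a DsRed2+ and a DsRed2- group of 3 samples each, taken on different dates, and polyadenylated RNA was sequenced in bulk. Whether the reporter line is a single clone is not given in the sources used here.

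The authors' deposited table gives 1 log2 fold change per gene and does not say which sorted group is the numerator, so "up" means only that the deposited value is positive. A gene is called up or down there at an adjusted p-value under 0.05 and a log2 fold change beyond 0.5 in either direction. Values per library could not be given, because the 6 columns of the count table match no sample label. The error of each value is the authors' standard error, printed after ± and on the log2 scale. In bulk RNA, more cells of a type and more RNA per cell cannot be told apart.

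The members do unlike jobs. Coil encodes coilin, the scaffold protein that marks Cajal bodies, nuclear bodies in which small nuclear RNPs mature. Trim25 encodes an interferon-inducible E3 ubiquitin ligase known for its part in antiviral signalling through the RNA sensor RIG-I. Dgke encodes the epsilon isoform of diacylglycerol kinase, which turns the lipid messenger diacylglycerol into phosphatidic acid. Scpep1 encodes a serine carboxypeptidase of the lysosome. Elobl is a relative of Elob, the gene for elongin B, an adaptor in transcription elongation and in Cullin ubiquitin ligases. The other members are not annotated as coding: 2210409E12Rik is a transcribed processed pseudogene, Gm11496 a long noncoding RNA, and Dgkeos a noncoding RNA antisense to Dgke.

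In GENCODE M21 (GRCm38), which served for gene order and strand, the interval of the run holds 9 genes, and 8 of them have a row in the authors' deposited table. The ninth is Scpep1os, antisense to Scpep1, which was not analysed here. Scpep1, Elobl, Gm11496 and Dgke lie on the minus strand, and Coil, 2210409E12Rik, Trim25 and Dgkeos on the plus strand. Some of the members overlap. The pseudogene 2210409E12Rik lies wholly within Coil on the same strand, and 197 of its 346 bases are also exon of Coil. Dgke and Dgkeos run in opposite directions and share 100 bases of exon.

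Promoter windows from RefSeq (GRCm38.p6), 250 bases before to 50 after each start, were found for 7 of the 8 members. They are shown for the pairs of members that start close together on opposite strands. Capitals mark the stretch that both windows of a pair hold, read on opposite strands. The positions are those of GRCm38.p6, while the submitters' processing notes name GRCm39.
Trim25, chr11:88999153-88999452, plus strand: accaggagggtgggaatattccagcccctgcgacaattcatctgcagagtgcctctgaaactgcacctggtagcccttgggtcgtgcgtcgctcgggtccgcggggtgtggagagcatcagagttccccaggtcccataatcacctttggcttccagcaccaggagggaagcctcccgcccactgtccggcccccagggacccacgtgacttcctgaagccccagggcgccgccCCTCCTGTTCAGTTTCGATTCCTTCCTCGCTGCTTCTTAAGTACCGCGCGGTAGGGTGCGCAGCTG
Gm11496, chr11:88999387-88999686, minus strand: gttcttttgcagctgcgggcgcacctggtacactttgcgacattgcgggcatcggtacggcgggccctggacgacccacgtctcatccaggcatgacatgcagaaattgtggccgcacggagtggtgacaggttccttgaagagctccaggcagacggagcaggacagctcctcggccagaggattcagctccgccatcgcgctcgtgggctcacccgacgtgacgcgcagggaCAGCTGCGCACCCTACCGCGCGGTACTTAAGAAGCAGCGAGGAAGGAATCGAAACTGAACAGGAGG
Dgke, chr11:89060699-89060998, minus strand: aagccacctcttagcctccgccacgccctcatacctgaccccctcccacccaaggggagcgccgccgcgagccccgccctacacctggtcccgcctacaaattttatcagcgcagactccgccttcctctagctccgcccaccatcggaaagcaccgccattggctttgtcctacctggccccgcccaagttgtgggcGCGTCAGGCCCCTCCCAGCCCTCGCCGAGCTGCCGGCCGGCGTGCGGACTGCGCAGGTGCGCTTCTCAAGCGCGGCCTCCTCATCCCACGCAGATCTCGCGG
Dgkeos, chr11:89060501-89060800, plus strand: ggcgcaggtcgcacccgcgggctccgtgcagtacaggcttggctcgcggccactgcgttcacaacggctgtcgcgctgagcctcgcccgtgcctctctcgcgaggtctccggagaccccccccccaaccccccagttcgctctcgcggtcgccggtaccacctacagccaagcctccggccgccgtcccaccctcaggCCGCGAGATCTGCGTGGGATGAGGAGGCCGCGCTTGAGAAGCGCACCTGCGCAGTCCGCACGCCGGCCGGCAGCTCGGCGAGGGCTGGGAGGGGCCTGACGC
The Trim25 and Gm11496 windows shared 66 bases, and the Dgke and Dgkeos windows shared 102. Between all other pairs of members, the longest stretch shared on opposite strands was at most 10 bases. In RefSeq, then, a coding member and a noncoding member start from the same short segment at both places. By these positions, Gm11496 starts just inside Trim25, so the beginnings of both genes overlap on opposite strands. GENCODE M21 places the start of Gm11496 and the starts of Dgkeos elsewhere, so the arrangement depends on the annotation.

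CpG dinucleotides were common in these windows. The shared pairs held 18 (Trim25), 27 (Gm11496), 29 (Dgke) and 38 (Dgkeos), the Coil window held 21 and the Scpep1 window 15. The median over 32851 windows of 300 bases was 7, with quartiles of 3 and 20. These windows were not limited to genes with a row or to coding genes, and the values for such genes alone were not computed. CpG in the bases shared within a pair are counted in both windows. Dgkeos had more CpG than 95.1% of all windows, and Scpep1, the lowest of these 6, more than 65.4%. Elobl was the exception. Its window, shown to set it against the pairs above, held 0 CpG, as did 5.43% of all windows.
Elobl, chr11:88966882-88967181, minus strand: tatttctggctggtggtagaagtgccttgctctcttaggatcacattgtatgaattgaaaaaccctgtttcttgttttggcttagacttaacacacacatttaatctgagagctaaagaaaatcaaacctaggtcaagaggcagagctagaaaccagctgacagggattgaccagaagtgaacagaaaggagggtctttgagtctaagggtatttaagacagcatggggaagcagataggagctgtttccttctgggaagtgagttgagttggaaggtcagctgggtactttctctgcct

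**Figure D1:**
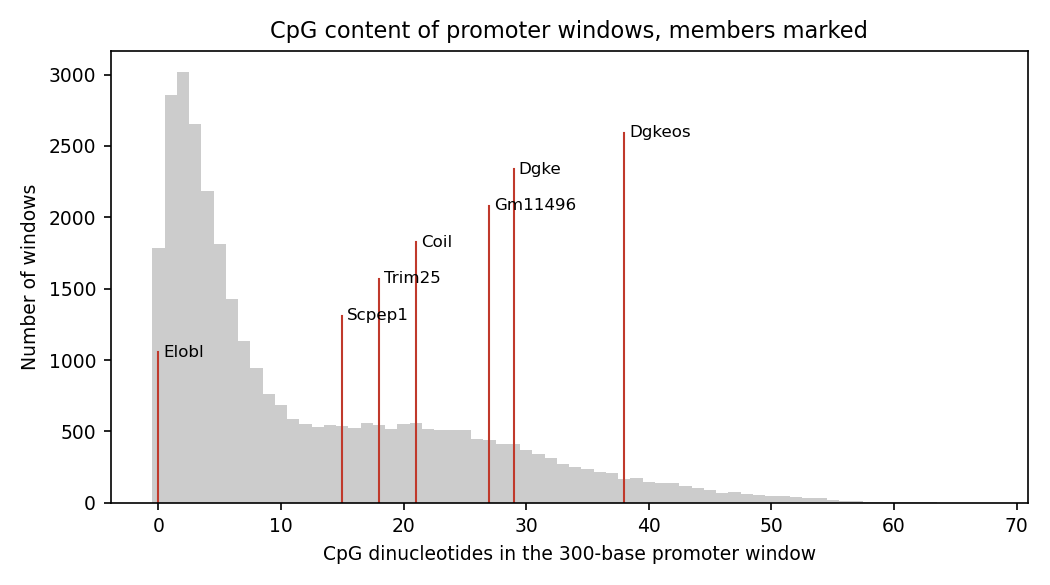
CpG count per promoter window of 300 bases (x axis) against the number of windows (y axis, grey bars), with the 7 members found in RefSeq as red lines whose heights carry no value. Elobl sits at 0, and the other 6 members sit between 15 and 38, above the median of 7.

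Short motifs were searched by their letters on both strands of the same windows. The GC box GGGCGG was in 4 of the 7 windows (Scpep1, Coil, Trim25 and Dgke), against 35.7% of all windows. The 4 are the members called abundant below, but a link with abundance was not tested. The share among windows with as many CpG was not computed. TATAAA was in 1 window, that of Coil (13.6% of all windows), and the E-box CACGTG in 1, that of Trim25 (7.15%). Neither the interferon-stimulated response element, taken as GAAA, any 2 bases and GAAA (3.44% of all windows), nor the octamer ATTTGCAT (1.74%) was found in any of the 7. These are matches of letters in a short window and no sites of binding. Only exact matches were counted, so near matches to these patterns may be present. At least 1 is: the stretch shared by the Gm11496 and Trim25 windows holds GAAACTGAAC, read on the strand of Gm11496. It differs from the searched interferon pattern only in its last base. The share of all windows with such a near match was not computed.

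Elobl and 2210409E12Rik resemble each other and lie on opposite strands. The shortest Elobl transcript in GENCODE M21, 300 bases long, aligned with 2210409E12Rik over 271 bases, of which 258 (95.2%) were identical and 13 differed, with 0 gaps. In the best-scoring BLAST alignment over all their transcripts, the pair matched at 90.1% over 332 bases. The end of the 271-base alignment is shown because it bears on whether reads of the pair can be told apart. It lies outside the Coil exon and within the Elobl coding sequence. It covers bases 198 to 278 of the 346 of 2210409E12Rik and is not the end of that gene. Capitals mark the 2 bases that differ among 81.
Elobl: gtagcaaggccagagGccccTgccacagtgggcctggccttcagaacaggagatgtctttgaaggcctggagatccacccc
2210409E12Rik: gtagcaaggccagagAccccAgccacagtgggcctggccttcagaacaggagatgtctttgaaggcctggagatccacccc
The longest Coil transcript carries part of the same sequence. It matched 2210409E12Rik at 100% over 197 bases and Elobl at 93.0% over 301 bases. Elob was more distant, at 78.5% over 326 bases of Elobl. Reads of Elobl, 2210409E12Rik and that form of Coil may have been divided among them, so the values of these 3 members are uncertain and are not independent of each other. Gm11496 and Trim25 had 0 other genes with a match of at least 90% over at least 100 bases. Dgke had 1466, over a stretch that recurs in many transcripts. Dgkeos matched Dgke at 100% over 100 bases on the opposite strand, and Scpep1 matched Scpep1os at 99% over 100 bases. The strand setting is not given, so the values of Dgke and Dgkeos may also not be independent of each other. By the RefSeq starts, the same may hold for Trim25 and Gm11496.

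All 8 members were called up in the authors' deposited table, where 9.4% of all genes were called up and 12.1% called down. The rule used this contrast, so nothing is read from that count. The median log2 fold change of the members in the authors' deposited table was 1.23, between 0.51 and 4.53, against 0.0097 over all genes. On chromosome 11 outside the run, 7.69% of 1275 genes were called up and 9.73% called down, with a median of 0.016. The 8 members differed in size, and they fell into 4 abundant coding genes with small fold changes and 4 scarce genes with large ones.

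**Figure D2:**
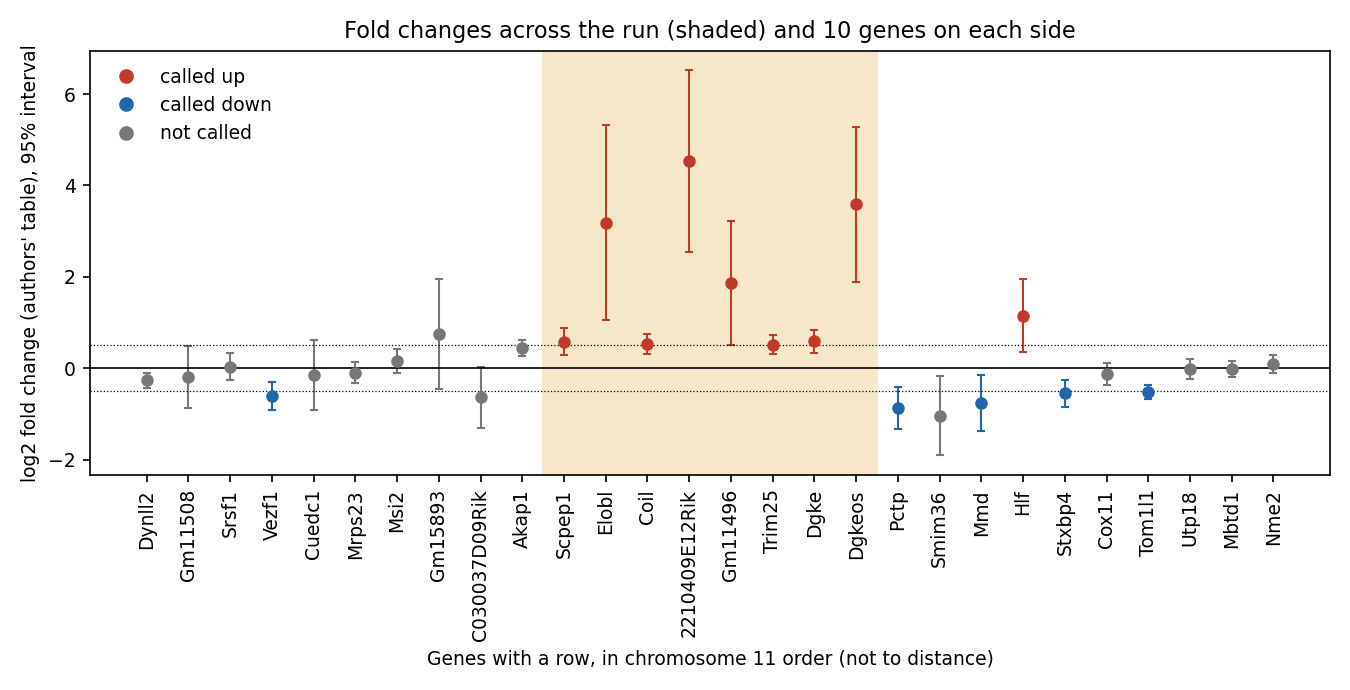
Log2 fold change of the 8 members (shaded) and of the 10 nearest genes with a row on each side, in chromosome order, with bars for the 95% interval from the authors' standard error and dotted lines at 0.5 and -0.5. Scpep1, Coil, Trim25 and Dgke sit between 0.51 and 0.59, the other 4 members between 1.88 and 4.53, and Pctp, the next gene after Dgkeos, at -0.87.

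The 4 abundant members moved by nearly the same amount. In the authors' deposited table, Coil (ENSMUSG00000033983) had a mean normalized count of 1784, and its fold change was 0.53 ± 0.11. Trim25 (ENSMUSG00000000275) stood at 0.51 ± 0.11 in the authors' deposited table, at a mean count of 4616. For Dgke (ENSMUSG00000000276), the authors' deposited table gave 0.59 ± 0.13 and a mean count of 672. Each of these is a change of about 1.4-fold to 1.5-fold (1.44 for Coil, 1.43 for Trim25 and 1.51 for Dgke). Scpep1 (ENSMUSG00000000278) was at 0.58 ± 0.15 and a mean count of 5000 in the authors' deposited table, a fold of 1.49. Their 95% intervals, from 0.28 at the lowest to 0.87 at the highest, all overlapped, so the 4 genes could not be ranked by size. Differences between members were not tested, since all come from the same libraries.

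These 4 calls lie near the authors' fold limit. Of the 5627 genes with mean counts in the range of these members, 372 (6.61%) were called up in the authors' deposited table, and their median fold change was 0.78 on the log2 scale. All 4 abundant members are below that median. Trim25 is the member closest to the limit of 0.5, and centring the fold changes on the other chromosome 11 genes left it at 0.498 and ended its call. At a limit of 1, which 5.59% of all genes pass upward, none of these 4 is called and the 4 scarce members are.

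The scarce members had larger and less certain fold changes. The authors' deposited table gave 2210409E12Rik (ENSMUSG00000081766) a value of 4.53 ± 1.02, at a mean count of 11.7. Dgkeos (ENSMUSG00000063109) was at 3.58 ± 0.87 and a mean count of 18.8 in the authors' deposited table. Elobl (ENSMUSG00000057534) had 3.18 ± 1.09 in the authors' deposited table, and its mean count of 6.47 was the lowest of the 8. Gm11496 (ENSMUSG00000085152) had the smallest of these fold changes in the authors' deposited table, 1.88 ± 0.69 at a mean count of 17.9. The 95% intervals of 2210409E12Rik (2.54 to 6.53), Dgkeos (1.88 to 5.29) and Elobl (1.05 to 5.32) lay above those of all 4 abundant members. That of Gm11496, from 0.52 to 3.23, overlapped them. The members were chosen as called genes, and the lowest value called up was 1.32 under a mean count of 20. In the range of the abundant members it was 0.50. The separation of the intervals is thus partly set by the choice and is no test.

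Large fold changes are usual among scarce genes that are called. Of 2715 genes with a mean count under 20 in the authors' deposited table, 224 (8.25%) were called up. Their log2 fold changes had a median of 2.57 and a lowest value of 1.32. The median standard error of the 2715 genes was 0.75, against 0.12 for the genes in the range of the 4 abundant members. Elobl, 2210409E12Rik and Dgkeos are above 2.57 and Gm11496 is below it. With an adjusted p-value under 0.01 (7.81% of all genes called up), Elobl and Gm11496 lost their calls and 6 members kept theirs.

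**Figure D3:**
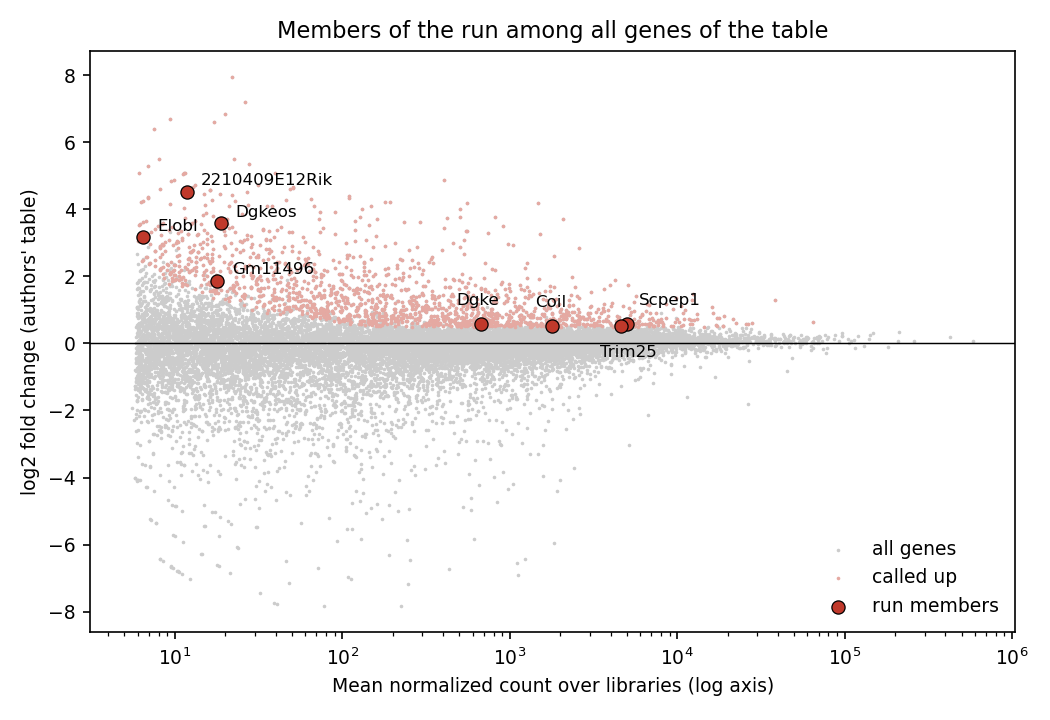
Log2 fold change (y axis) against the mean normalized count over libraries (x axis, log scale) for all 17110 genes, with genes called up in pale red and the 8 members as large red points. Scpep1, Coil, Trim25 and Dgke lie at the lower edge of the called genes, and Elobl, 2210409E12Rik, Gm11496 and Dgkeos lie at mean counts of 6.47 to 18.8.

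The mean count and the fold change together imply a level in each group if the groups have 3 libraries each. This calculation from the authors' deposited table puts Coil at 1459 and 2108 normalized counts, a difference of 649. Trim25 comes to 3802 and 5430, Scpep1 to 4012 and 5987, and Dgke to 537 and 808. For the scarce members, the lower side comes to 0.97 (2210409E12Rik), 1.28 (Elobl), 2.89 (Dgkeos) and 7.69 (Gm11496), and the higher side to 22.5, 11.7, 34.7 and 28.2. On the lower side, 2210409E12Rik, Elobl and Dgkeos are thus below 3 normalized counts a library, and their folds of 23.2, 9.09 and 12.0 rest on few reads. In counts, the abundant member of each neighbouring pair differed by more. Dgke differed by 272 and its antisense partner Dgkeos by 31.8, and Coil by 649 and the pseudogene inside it by 21.5. Trim25 differed by 1629 and its opposite-strand neighbour Gm11496 by 20.5.

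**Figure D4:**
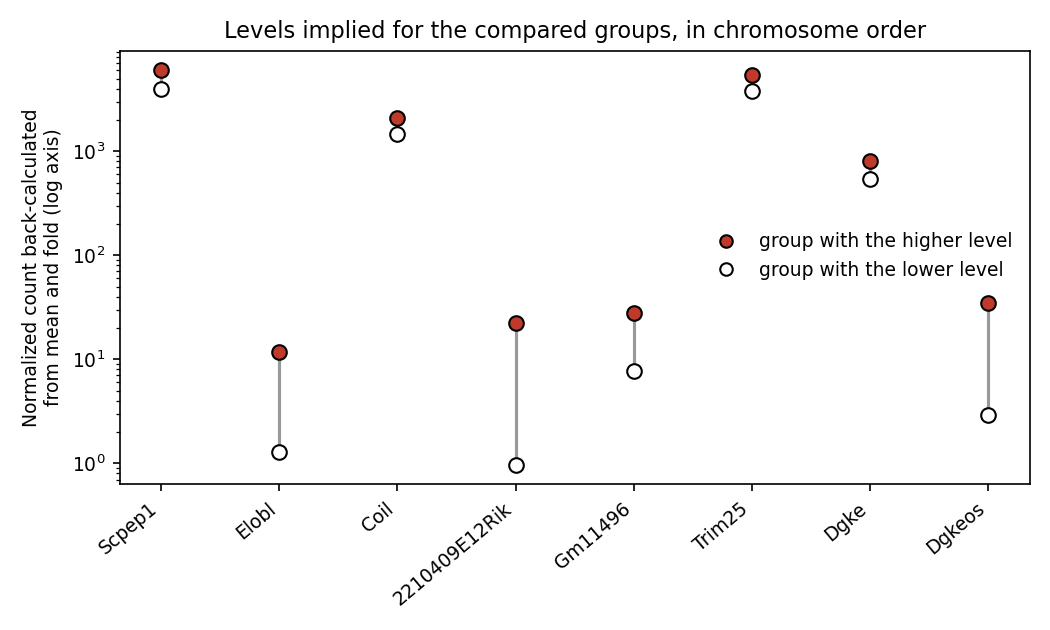
Normalized count implied for each group (y axis, log scale) by the mean and fold of the authors' table, for the 8 members in chromosome order, with the higher group filled and the lower group open. The gap is narrow for Scpep1, Coil, Trim25 and Dgke and wide for the 4 scarce members, whose lower group lies between 0.97 and 7.69.

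Per kilobase of exon (GENCODE M21), the mean normalized count of Scpep1 was the highest, at 2384. Trim25 followed at 802, Coil at 507 and Dgke at 80.2. The scarce members were at 33.9 (2210409E12Rik), 30.9 (Gm11496), 8.80 (Dgkeos) and 7.77 (Elobl). These levels have no error over samples, so the order of neighbours such as Gm11496 and 2210409E12Rik was not tested.

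On the Scpep1 side, the next gene with a row is Akap1, a scaffold for protein kinase A at mitochondria. In the authors' deposited table, Akap1 was at 0.44 ± 0.092, with a DESeq2 adjusted p-value of 1.39e-05. It misses the call only through the fold limit (14.6% of all genes were positive at an adjusted p-value under 0.05), and Trim25 at 0.51 is the member just inside it. Beyond Akap1, the long noncoding RNA C030037D09Rik was at -0.64 ± 0.34 and was not called. Gm15893 was at 0.76 ± 0.62, and Msi2, an RNA-binding protein gene, at 0.17, both without a call. The other genes on this side were Mrps23, Cuedc1, Vezf1, Srsf1, Gm11508 and Dynll2. Of the 10 genes there, 0 were called up and 1 down, near the shares of all genes (9.4% and 12.1%). The gene called down was Vezf1, at -0.60 ± 0.15 in the authors' deposited table.

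On the Dgkeos side, the next gene with a row had the opposite sign. Gm525, Nog and Ankfn1 are coding genes between Dgkeos and the next row and were not analysed here. That row is Pctp, a phosphatidylcholine transfer protein gene, at -0.87 ± 0.23 in the authors' deposited table (called down). Of the 10 genes on this side, 4 were called down and 1 up, and 8 were negative, where 12.1% of all genes were called down, 9.4% up and 49.0% were negative. Besides Pctp, the genes called down in the authors' deposited table were Mmd at -0.76, Stxbp4 at -0.55 and Tom1l1 at -0.52. Hlf, a transcription factor gene, was called up at 1.15 ± 0.41 and a mean count of 41.8 in the authors' deposited table. The genes without a call were Smim36 at -1.04, Cox11, Utp18, Mbtd1 and Nme2.

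Genes that work with the members were counted from lists, beside the background: of every gene in the authors' deposited table, 9.4% were called up, 12.1% were called down and 49.0% were negative. The median of the 34 Cajal body and small nuclear RNP assembly genes (authors' deposited table) was 0.15, and 27 were positive, but 1 was called up and 0 down. The gene called up was Usp50, at 1.02 ± 0.31. At an adjusted p-value under 0.05 without the fold limit, 6 of the 34 passed in the authors' deposited table. Over all genes, 5211 of 17110 passed there, which is a larger share. The 6 were Usp50, Nop10 at 0.41, Gemin6 at 0.37, Dkc1 at 0.26, Nop56 at 0.24 and Lsm11 at -0.42. Smn1 at 0.055, Sart3 at 0.092, Wrap53 at -0.11 and Nolc1 at 0.19 did not pass.

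Of 31 listed names of Trim25 and RIG-I pathway genes, some of them aliases of the same gene, 26 had a row. The authors' deposited table called 9 (34.6%) of the 26 down and 1 (3.85%) up, against 12.1% and 9.4% of all genes. Their median was -0.24, and 20 of the 26 were negative (76.9%, against 49.0% of all genes), 11 of these without a call. Isg15, a ubiquitin-like modifier induced by interferon, was at -7.83 ± 1.15 (DESeq2 adjusted p-value 1.91e-10 in the authors' deposited table). Its mean count was 77.6. Ifih1, the gene of the RNA sensor MDA5, was at -7.78 ± 1.35 in the authors' deposited table (DESeq2 adjusted p-value 1.19e-07). With a mean count of 40.5 for Ifih1, the lower side of both genes rests on few reads. The other genes called down were Uba7, Herc6, Nlrc5, Ube2l6, Tank, Zc3hav1 and Mex3c. Rnf135, a ubiquitin ligase that also acts on RIG-I, was called up at 1.13 ± 0.28 in the authors' deposited table. The gene of RIG-I itself, Rigi, was at 0.44 ± 0.19 and was not called. Its adaptor Mavs, at 0.33 ± 0.11, was below the fold limit. In all, 16 of the 26 genes were not called, among them Tbk1 at -0.20, Irf3 at -0.018, Traf3 at -0.41 and Traf6 at -0.45. The share called down thus describes this list and not the RIG-I pathway as a whole.

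Among 34 other TRIM genes with a row in the authors' deposited table, 6 (17.6%) were called up and 10 (29.4%) down, against 9.4% and 12.1% of all genes, around a median of -0.12. Trim16 and Trim2 were the highest of those called, at 2.11 and 1.13, and Trim30a and Trim12c the lowest, at -3.01 and -1.88. The last 2 belong to a family of similar genes, so their reads could be divided among copies.

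Of the 22 genes of diacylglycerol kinases and adjoining lipid steps in the authors' deposited table, 3 (13.6%) were called up and 2 (9.09%) down, with a median of -0.018. These shares are near those of all genes (9.4% and 12.1%), so the counts are no result about the list. The lipid phosphatase genes Plpp3 and Plpp1 were called up at 1.04 and 0.81, with standard errors of 0.20 and 0.13. Dgka, another kinase of the family of Dgke, was also called up in the authors' deposited table, at 0.69 ± 0.20. Dgkk and Dgat2 were called down at -2.39 and -0.75. The kinases Dgkd, Dgkz, Dgkq and Dgkh, at -0.21, -0.021, 0.33 and 0.47, were not called.

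The elongin and Cullin 2 or 5 genes had 0 called up and 4 (16%) called down of 25 in the authors' deposited table, and the median was -0.12. The share called down is near the 12.1% of all genes. The lowest were Socs1 at -1.35 and Asb13 at -1.08, both substrate receptors of such ligases. Elob, the relative of Elobl, was at 0.33 ± 0.091 and was below the fold limit, and Eloc was at -0.11. Among 4 other serine peptidases of the lysosome, Prcp was called down at -0.57 ± 0.10. Ctsa, which like Scpep1 encodes a serine carboxypeptidase, was at 0.10 ± 0.17 in the authors' deposited table.

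**Figure D5:**
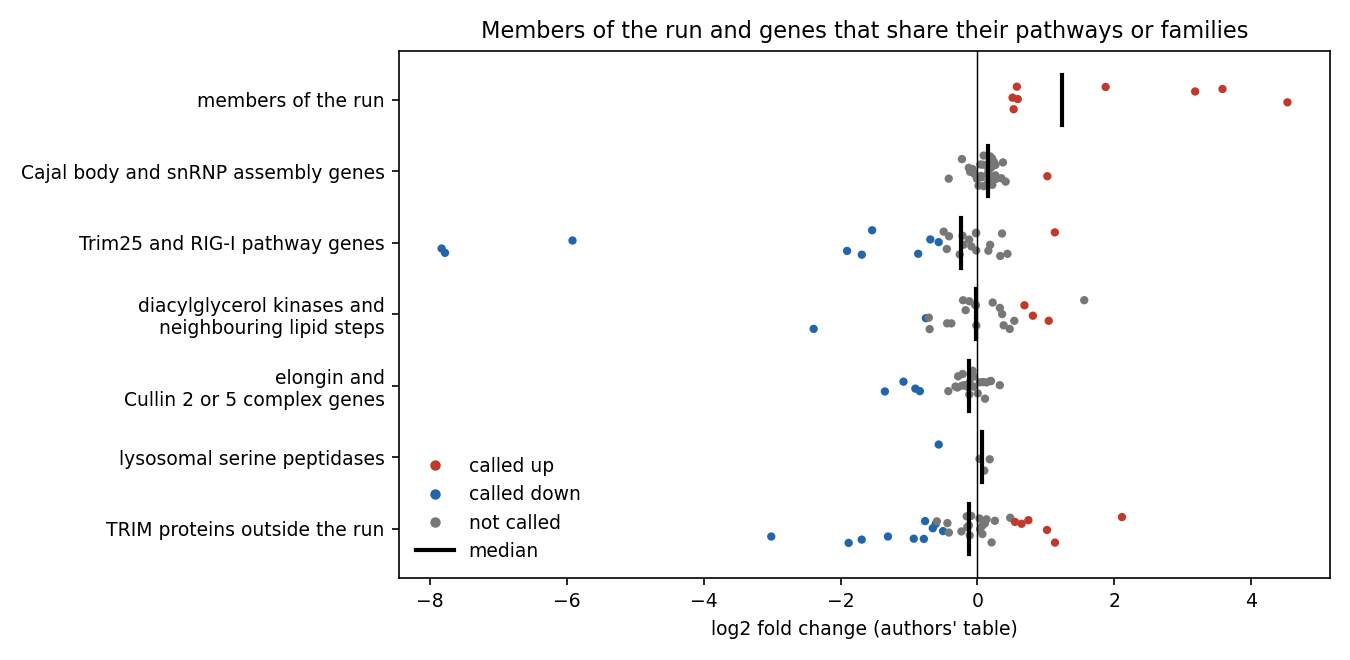
Log2 fold change (x axis) of the 8 members and of the genes in 6 lists that share their pathways or families, 1 point a gene, coloured by the authors' call, with a bar at each median and random vertical spread. The list medians lie between -0.24 and 0.15, and the members lie between 0.51 and 4.53.

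Markers of cell types also differed in this comparison, in which 9.4% of all genes were called up and 12.1% down. In the authors' deposited table, all 6 embryonic stem cell markers were positive and 3 were called up, such as Zfp42 at 1.10 and Esrrb at 0.91. The 4 trophectoderm markers were all called down, such as Cdx2 at -5.82 and Krt19 at -4.73. Of the fibroblast markers, 4 of 5 with a row were called down, such as Tagln at -5.96 and Col1a2 at -4.85 (mean count 10.1). The other fibroblast marker, Thy1, was positive at 0.34 ± 0.43 and was not called. Of the primitive endoderm markers, 1 of 3 was called down, Dab2 at -2.18. The 6 two-cell-like markers (Zscan4c, Zscan4d, Zfp352, Tcstv3, Tmem92 and Dux) had 0 rows used here. Of 24 gene names in a wider two-cell list, aliases included, 3 had a row, and Calcoco2 was the 1 called up, at 3.10 ± 0.14. The part of these differences in the values of the run was not tested, and their summed level per library could not be computed.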

How the data were processed

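Bulk RNA of 3 DsRed2+ and 3 DsRed2- samples was analysed through 1 table of the authors' own comparison. The submitters' processing notes name FastQC 0.12.1, Trimmomatic 0.39, STAR 2.7.11b, RSEM 1.3.3, DESeq2 1.45.3 and GRCm39, with no role or order. Per the file headers, the authors' mean normalized count is a signal taken over all libraries. Fold changes and their standard errors were deposited as log2 values, and the p-value and adjusted p-value are the authors'. The deposited statistic is a score, and it equals fold change over standard error within 5.77e-07. Annotation release, strand setting, model and reference group are not given in the sources used here. The labels list no groups other than the sorted ones, and the table was read as their comparison.

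The 6 columns of the deposited count table match no sample label and were not used. Library depth, values per sample and the edgeR test planned for counts are therefore not analysed here. Intervals are 95% normal intervals from the authors' standard errors. Group levels were computed as if each group held 3 libraries. Gene order, strand and exon length came from GENCODE M21 (GRCm38), matched by gene ID for 16795 of 17110 rows, and promoter windows from RefSeq (GRCm38.p6). Transcripts were compared with BLAST 2.17.0, and calls were recomputed in Python 3.11.15 with scipy 1.17.1 and tested on simulated data.

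The members and gene lists were chosen with earlier results of these data known. The genes named are all members, the 10 nearest genes with a row on each side, and in each list the 2 most extreme called genes in each direction. The genes named outside that rule (such as Rigi, Mavs, Elob, Eloc, Smn1, Nop10, Dgka and Ctsa), the mean count of 20 and the motifs were chosen after values were seen.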

Additional observations from a re-analysis of the deposited data

How the results depend on the processing

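No paired analysis was possible because no count column matched a sample, and the comparison table has 1 value a gene. For the same reason edgeR, DESeq2, other count filters and fits without a replicate were not run, so whether 1 library decides a value is not answered here.

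Of the 8 members, 8 were called up, and this number was 4 with a fold limit of 1 on the log2 scale (the scarce members) and 4 with a mean count of at least 50 (the abundant members, the only ones left by that filter). It was 6 at an adjusted p-value under 0.01, 8 without a fold limit, 8 after centring on all genes and 7 after centring on chromosome 11, where Trim25 stood at 0.498. No member was called down (0) in any of these 6 alternatives, which was fixed in advance because all 8 are at 0.51 or above. The 8 without a fold limit was also fixed, since a looser rule loses no call. Over all genes, 1609 were called up and 2067 down. At the limit of 1 these were 957 and 1315, and without a limit 2492 were up. On the Scpep1 side, 0 genes were called up and 1 down of 10, 3 up and 3 down of 20, and 0 down of 5. With a mean count of at least 50, 5 in place of 9 genes of the Trim25 and RIG-I pathway list were called down. At a limit of 1, the called genes were 1 up and 1 down among the lipid genes, 2 down among the elongin genes, 0 down among the lysosomal peptidases, and 3 up and 4 down among the TRIM genes. Each of these changes comes with a limit, filter or number of genes that differs, stricter or looser, and other causes were not tested. The other 58 values under an alternative stayed within 1.5 times or kept their call. Some of these, such as the members called down, could not have moved.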

Other observations

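In GENCODE M21 order, 16773 pairs of neighbouring genes with a row were formed along the chromosomes. Both genes were called up in 335 pairs (2.00%), both were called down in 475 (2.83%), and 1 was called up and 1 down in 257 (1.53%). The run from Scpep1 to Dgkeos was 1 of 3 stretches of at least 8 consecutive rows called up, and the longest of these held 17 genes. There was 1 stretch of at least 8 rows called down. The run from Scpep1 to Dgkeos was proposed from this same table, so these numbers describe its setting and test nothing. Genes that overlap or share sequence, such as Coil and 2210409E12Rik, are counted as separate neighbours.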
